A study of Mus musculus with 24 samples.

Results

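The genes described here are 38 genes of the mouse: imprinted genes that lie outside the Dlk1-Dio3 locus, and Zfp57, which keeps imprints but is not imprinted itself. They were chosen by name: each is a row of the count tables whose Ensembl gene ID maps to one of the 38 symbols in GENCODE release M21. All 38 symbols were found among 55487 gene IDs. RNA came from KH2 mouse embryonic stem (ES) cells with a DUX transgene, which doxycycline (DOX) switches on through its promoter. DUX is a transcription factor of the early embryo that switches on genes of the 2-cell stage, and the series title names DUXBL, a related homeobox factor, as a control of leaving that state. There were 12 groups with 2 libraries each, 24 in all. WT and DUXBL-KO cells make up what is called the plain set here. TRIM24-KO, TRIM33-KO and 2 WT lines labelled pLV2, called line 1 and line 2, make up the pLV2 set, and all carry the transgene. Each of these 6 lines was sequenced without DOX and after 16 h of DOX. What pLV2 stands for, whether a line is a single clone, and which WT pLV2 line was the source of which knockout are not given in the sources used here.

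In an imprinted gene the copy from one parent is silenced, so that the other copy gives most or all of the RNA. The genes sit in clusters, each under an imprinting control region with DNA methylation on only one parental copy, which acts on the genes of the cluster directly, through noncoding RNA or through insulators, and ES cells in culture are known to lose or gain such methylation at single clusters. ZFP57 is a zinc finger protein that binds methylated TGCCGC sequences in these regions and keeps them methylated through TRIM28. The counts used here do not separate the parental copies, so a change of level cannot be assigned to either copy.

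All values below are in CPM, the deposited counts scaled for library size with TMM factors over all 24 libraries, and are given for library 1 and then library 2 of a group. Gene counts ranged from 11784696 to 19136869 per library, and 36 of the 38 genes passed the filter on low counts in each set. These 36 are called the listed genes below, and they include Zfp57. Nap1l5 and Rasgrf1 did not pass, with at most 11 and 7 counts in any library. The treatment tag differs from the title in 8 libraries, all of the pLV2 set. The titles were followed, and Dux had 0 to 2 counts in the 12 libraries without DOX in the title and 20 to 110 counts in the other 12. Trim33 lay between 18.3 and 22.6 CPM in TRIM33-KO and between 92.3 and 146 CPM in the WT pLV2 lines. Trim24 was not lower in the libraries labelled TRIM24-KO (126 to 146 CPM) than in WT pLV2 line 1 (98.7 to 106 CPM), though lower than in line 2 (175 to 215 CPM), and Duxbl1 with DOX reached 9.89 CPM in the libraries labelled DUXBL-KO and 7.38 CPM in plain WT. Markers of ES cells summed to between 3847 and 5225 CPM over 10 genes. The cells were grown on gelatin or on mouse fibroblasts, and the list of 17 fibroblast markers summed to between 34.5 and 78.0 CPM, with at most 3 counts of Dcn, 2 of Col3a1, 1 of Lum and 1 of Postn in any library. Other fibroblast markers were well above 0, with 112 to 401 counts of Col5a1, 89 to 414 of Thy1, 37 to 231 of Fbn1, 24 to 169 of Pdgfrb and 13 to 95 of Col1a1.

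The stretches before the start sites of some genes on which the results turn show how differently these promoters are built. Each line gives the 250 bases before a RefSeq transcript start (GRCm38.p6), read 5′ to 3′ on the gene's own strand, and capitals mark TGCCGC or its reverse complement GCGGCA. Mest (chr6:30737800-30738049, + strand) and Grb10 (start 1, chr11:12037421-12037670, and start 2, chr11:12027972-12028221, both - strand) were among the genes that varied most between lines, together with Peg10, Sgce and Igf2. No RefSeq window was found for Peg10 or Sgce, and those of Igf2 are not printed. Magel2 (chr7:62376729-62376978, + strand), Zrsr1 (chr11:22971755-22972004, + strand) and Kcnq1ot1 (chr7:143296548-143296797, - strand) were called higher with DOX, Magel2 in all 6 lines and the others in the 4 pLV2 lines.

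Mest: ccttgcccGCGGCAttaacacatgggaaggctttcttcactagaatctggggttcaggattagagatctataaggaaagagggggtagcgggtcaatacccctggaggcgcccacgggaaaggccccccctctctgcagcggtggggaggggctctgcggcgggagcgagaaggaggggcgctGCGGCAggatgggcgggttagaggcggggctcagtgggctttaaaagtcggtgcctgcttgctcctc

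Grb10 start 1: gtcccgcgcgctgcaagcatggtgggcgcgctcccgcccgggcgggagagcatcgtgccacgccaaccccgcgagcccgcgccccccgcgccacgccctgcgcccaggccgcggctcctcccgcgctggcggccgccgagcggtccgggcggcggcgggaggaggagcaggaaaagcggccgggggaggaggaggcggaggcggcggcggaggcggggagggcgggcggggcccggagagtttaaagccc

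Grb10 start 2: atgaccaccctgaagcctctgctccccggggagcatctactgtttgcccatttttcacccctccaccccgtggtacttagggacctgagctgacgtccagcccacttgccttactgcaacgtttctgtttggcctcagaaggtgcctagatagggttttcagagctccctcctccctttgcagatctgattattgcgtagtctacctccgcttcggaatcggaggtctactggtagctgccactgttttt

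Magel2: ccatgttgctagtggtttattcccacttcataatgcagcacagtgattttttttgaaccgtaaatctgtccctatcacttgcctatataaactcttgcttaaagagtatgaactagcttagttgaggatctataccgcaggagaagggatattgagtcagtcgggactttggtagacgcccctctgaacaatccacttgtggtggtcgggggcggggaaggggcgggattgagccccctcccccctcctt

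Zrsr1: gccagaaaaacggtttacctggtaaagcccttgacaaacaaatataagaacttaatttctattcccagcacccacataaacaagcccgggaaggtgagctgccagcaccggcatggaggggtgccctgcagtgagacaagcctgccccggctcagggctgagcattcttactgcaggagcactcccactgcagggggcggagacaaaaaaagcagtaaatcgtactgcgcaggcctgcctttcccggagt

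Kcnq1ot1: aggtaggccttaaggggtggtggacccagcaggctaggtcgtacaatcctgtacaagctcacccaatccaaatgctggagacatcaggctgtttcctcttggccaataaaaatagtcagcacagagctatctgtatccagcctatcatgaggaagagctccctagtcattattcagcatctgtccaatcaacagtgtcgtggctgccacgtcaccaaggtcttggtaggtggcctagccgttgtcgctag

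The Mest stretch held 2 matches and 14 CpG pairs, and the other stretches held 0 matches. A further Mest start (chr6:30733256-30733505), which is not printed, held 0 matches and 7 CpG pairs. Start 1 of Grb10 was the richest in CpG, with 40 pairs, start 2 had 8, and Magel2, Zrsr1 and Kcnq1ot1 had 7, 8 and 5, beside a median of 6 over all windows. Windows on chromosome 18, where Impact lies, were left out for the 38 genes. RefSeq windows of 30 of the 38 genes were used, as 48 windows. TGCCGC on either strand was in 8 of these 48 windows (16.7%), which belong to 7 genes. It was in 8.68% of 32817 windows of the same length over all genes, chromosome 18 included. GATTNAATC, a short form of the palindrome that DUX binds, was searched on both strands. It was in 0 of the 48 windows and in 0.247% of all windows, so the stretch before Magel2 does not hold these letters.

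Levels can be compared between genes only per length of RNA. Without DOX, the median over 12 libraries was highest for Snurf (106 CPM per kb of exon), whose exons also belong to Snrpn, then for Zfp57 (76.7), Peg10 (42.7), Slc38a4 (39.5), Snrpn (35.7) and Phlda2 (32.7). It was lowest for Nap1l5 (0), Rasgrf1 (0.0112), Airn (0.0679) and Usp29 (0.121). Of the 36 genes that passed the filter, 15 had line means within 2-fold of each other over the 6 lines without DOX. The other 21 ranged wider, and Igf2, Peg10, Sgce, Mest and Grb10 each spanned more than 10-fold. Levels across the plain and pLV2 sets are a description only, since the set and any difference in handling cannot be told apart.

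**Figure D1:**
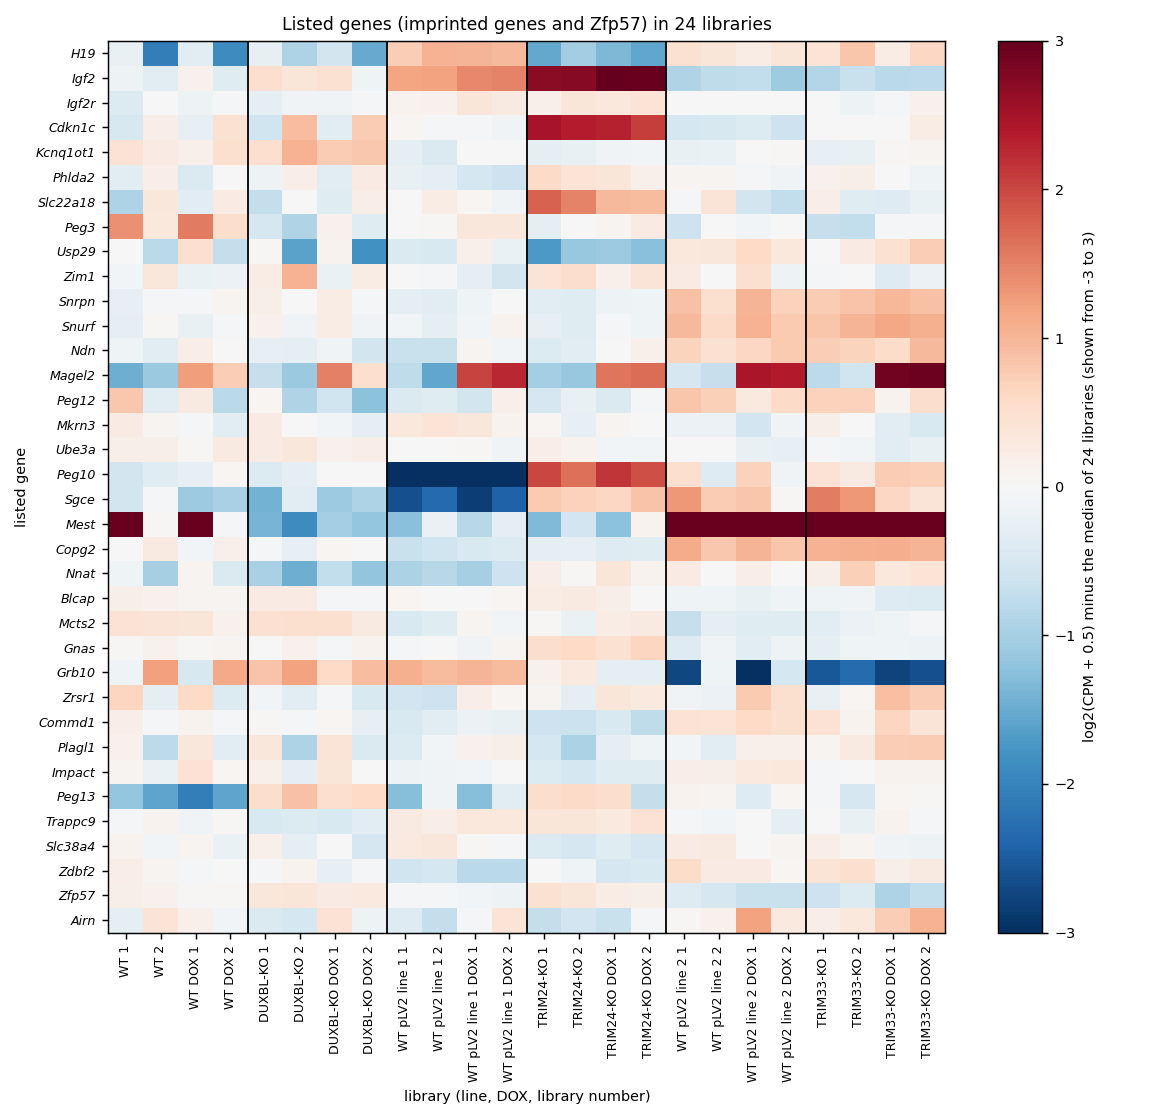
Each row is 1 of the 36 listed genes and each column 1 of 24 libraries, grouped by line. Colour is log2(CPM + 0.5) minus the gene's median over the 24 libraries, shown from -3 to 3. Peg10 and Sgce are lowest in all 4 libraries of WT pLV2 line 1, Mest is highest in WT pLV2 line 2 and TRIM33-KO, and Magel2 is higher in all 12 libraries with DOX.

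Differences between lines without DOX were tested with edgeR's quasi-likelihood test, with Benjamini-Hochberg adjustment over all genes of a set and a threshold of 0.05 for a call. Between WT pLV2 line 2 and line 1, 21 of 36 listed genes were called, 15 higher and 6 lower in line 2, and 9 of the calls were at least 2-fold. Of all 18079 genes, 38.3% were called in the same comparison, 18.9% higher and 19.3% lower, and 9.65% were called at 2-fold or more. In TRIM24-KO against the mean of both WT pLV2 lines, 26 of 36 were called, 15 higher and 11 lower, beside 43.4% of all genes, 20.9% higher and 22.5% lower. In TRIM33-KO against the same mean, 15 of 36 were called, 11 higher and 4 lower, beside 23.9% of all genes, 12.8% higher and 11.1% lower. The median log2 fold change of the 36 genes was 0.25, 0.08 and 0.21 in these comparisons, and that of all genes was 0, -0.02 and 0. The shares of listed genes called were 58.3%, 72.2% and 41.7%, and their differences from the shares of all genes were not tested. Markers of several cell types moved with the same groups. Of the 9 fibroblast markers tested, 4 were called higher in line 2 than in line 1 (Col1a1, Col1a2, Fbn1 and Thy1, at most by 4.04) and Tagln lower, and their list summed to 42.2 to 44.3 CPM in line 1 and 62.8 to 66.8 CPM in line 2. In TRIM33-KO the same 4 were called higher than the mean of both WT lines and Col5a1 lower, with a sum of 47.5 to 54.5 CPM. In TRIM24-KO 2 were called higher (Pdgfra and Twist1) and 3 lower (Col1a1, Col5a1 and Pdgfrb), with a sum of 43.5 to 45.6 CPM. Neural markers moved as well: of 5 tested, Nes, Tubb3 and Map2 were called higher in line 2 than in line 1 and Sox1 lower, and Nes, Tubb3 and Neurod1 were called higher in TRIM33-KO. Their list of 6 summed to 77.6 to 82.7 CPM in line 1, 110.1 to 131 CPM in line 2, 128 to 145 CPM in TRIM33-KO and 54.3 to 55.1 CPM in TRIM24-KO, where Neurod1 was called higher and Tubb3 lower. Of the 10 ES cell markers, 3 were called higher and 5 lower in line 2 than in line 1, 3 higher and 6 lower in TRIM24-KO, and 2 higher and 2 lower in TRIM33-KO. Between the WT lines, the primitive endoderm marker Dab2 and the trophoblast marker Tfap2c were called higher in line 2, and Sox7, Col4a1 and Eomes of these lists lower. In TRIM33-KO, Col4a1, Eomes and Krt7 were called lower. The part of these markers in the differences between lines was not tested. In DUXBL-KO against WT, 0 of 36 were called by edgeR's quasi-likelihood test, 4 had an unadjusted p under 0.05, and DESeq2 called 3. Of all genes, 0.0388% were called, 8.99% had an unadjusted p under 0.05, and DESeq2 called 0.98%. Nothing in the labels says that the 2 libraries of a group came from separate cultures, so p-values measure the spread between these libraries, which may be technical. In bulk RNA, fewer cells that express a gene and less RNA per cell cannot be told apart.

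In plain WT and WT pLV2 line 2, gaps between libraries recurred between the same library numbers with DOX, as the following genes show. Over all genes, the deviations of same-numbered libraries correlated at 0.452 in WT, 0.644 in DUXBL-KO and 0.243 in line 2. The values were lower in line 1 (0.0201), TRIM24-KO (0.156) and TRIM33-KO (0.0816). In plain WT, library 1 had 10.7 times the Mest of library 2 without DOX and 13.3 times with DOX, while Grb10 was 2.58 and 3.11 times higher in library 2. In WT pLV2 line 2, Grb10 was 6.26 times higher in library 2 without DOX and 6.43 times with DOX. For Peg10, library 2 of line 2 lay 0.461 of the way from library 1 to the mean of line 1 without DOX, and the same share was 0.361 for Mest, 0.415 for Grb10, 0.433 for Snrpn and 0.272 for Copg2. Of 72 genes that differed at least 4-fold between line 1 and library 1 of line 2 with DOX and at least 2-fold without, 63 (87.5%) had library 2 in between, at a median share of 0.164. With DOX, and the folds exchanged, it was 65 of 84 genes (77.4%), at a median share of 0.105. Both sets of genes were chosen on library 1, which favours library 2 lying in between. Dropping both libraries numbered 2 of line 2, an alternative chosen after seeing the data, left 1 library in each of its groups. None of the 20 named fold changes that involve line 2 reversed in that fit. The part of this spread in the line differences was not tested.

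Peg10 and Sgce, which start next to each other on opposite strands at the proximal end of chromosome 6, were nearly silent in a single line. Peg10 (chr6:4747306-4760517, + strand) is a retrotransposon-derived gene that the placenta needs, and Sgce (chr6:4674350-4747207, - strand) encodes epsilon-sarcoglycan, a membrane protein. Without DOX, Peg10 was at 240.4 and 276 CPM for WT and 268 and 293 CPM for DUXBL-KO. In the pLV2 set it was at 2.3 and 2.69 CPM for WT pLV2 line 1, 503 and 272 for line 2, 1418 and 1109 for TRIM24-KO and 482 and 431 for TRIM33-KO. WT pLV2 line 1 was thus far below the other 5 lines, and TRIM24-KO was the highest, with no overlap between those groups. Line 2 exceeded line 1 by a log2 fold change of 7.26 (SE 0.35, edgeR adjusted p = 6.887e-10). TRIM24-KO exceeded line 1 by 8.95 (SE 0.36, edgeR adjusted p = 3.426e-11) and line 2 by 1.69 (SE 0.24, edgeR adjusted p = 1.659e-05), and the mean of both by 5.32 (SE 0.23, edgeR adjusted p = 2.557e-11). With DOX, Peg10 was at 301 and 368 CPM for WT, 360.1 and 350.2 for DUXBL-KO, 2.19 and 2.6 for WT pLV2 line 1, 572 and 328 for line 2, 1581 and 1355 for TRIM24-KO and 598 and 584 for TRIM33-KO, with the line means in the same order.

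Sgce was at 1.91 and 2.94 CPM for WT and 0.821 and 2.29 CPM for DUXBL-KO. In the pLV2 set it was at 0.0717 and 0.202 CPM for WT pLV2 line 1, 8.19 and 5.51 for line 2, 5.58 and 5.23 for TRIM24-KO and 9.67 and 8.25 for TRIM33-KO. The libraries of line 1 held 1 and 3 counts of it, so the fitted log2 fold change of line 2 against line 1, 5.54 (SE 0.49, edgeR adjusted p = 3.011e-07), rests in part on the prior count. From the summed counts, line 2 had 50.5 times the Sgce of line 1 (exact 95% interval 19.5 to 187, counting error only), TRIM33-KO 64.5 times (25 to 238) and TRIM24-KO 38.9 times (14.9 to 144). Peg10 and Sgce did not keep one ratio across lines: TRIM24-KO had more Peg10 than TRIM33-KO and less Sgce, with no overlap between their libraries in either gene. After DOX, Sgce was at 1.17 and 1.3 CPM for WT, 1.17 and 1.35 for DUXBL-KO, 0 and 0.163 for WT pLV2 line 1, 5.79 and 3.14 for line 2, 4.94 and 5.87 for TRIM24-KO and 4.91 and 4.11 for TRIM33-KO.

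Mest and Copg2, which overlap at their 3′ ends in the middle of chromosome 6, were both higher in WT pLV2 line 2 and TRIM33-KO. Mest (chr6:30723547-30748465, + strand) encodes a hydrolase-like protein of the embryonic mesoderm, and Copg2 (chr6:30747554-30896794, - strand) a coat protein subunit of transport vesicles. Mest was at 18.9 and 1.76 CPM for WT and 0.338 and 0.0953 CPM for DUXBL-KO without DOX. The pLV2 libraries had 0.43 and 1.41 CPM for WT pLV2 line 1, 154 and 99 for line 2, 0.385 and 0.984 for TRIM24-KO and 139 and 139.7 for TRIM33-KO. Every library of WT pLV2 line 2 and TRIM33-KO stood far above those of line 1 and TRIM24-KO, and plain WT library 1 lay in between. The log2 fold change of line 2 against line 1 was 7.06 (SE 0.36, edgeR adjusted p = 8.541e-10), and that of TRIM24-KO was -0.46 against line 1 (SE 0.86, edgeR adjusted p = 0.7315) and -7.52 against line 2 (SE 0.37, edgeR adjusted p = 1.423e-10). The DOX libraries repeated this pattern, with 21.9 and 1.64 CPM for WT, 0.585 and 0.482 for DUXBL-KO, 0.731 and 1.3 for WT pLV2 line 1, 181 and 121 for line 2, 0.433 and 1.87 for TRIM24-KO and 177 and 177 for TRIM33-KO.

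For Copg2 the libraries without DOX had 49 and 58.3 CPM for WT, 46.9 and 40.8 for DUXBL-KO, 30.3 and 31.9 for WT pLV2 line 1, 106 and 85.3 for line 2, 39.9 and 40.5 for TRIM24-KO and 100.4 and 102 for TRIM33-KO. All libraries of line 2 and TRIM33-KO were above all other libraries, but by much less than for Mest. Line 2 exceeded line 1 by a log2 fold change of 1.61 (SE 0.09, edgeR adjusted p = 3.105e-09). With DOX the values were 45.8 and 54.1 CPM for WT, 50.1 and 47.6 for DUXBL-KO, 35.1 and 36.3 for WT pLV2 line 1, 98.1 and 86.2 for line 2, 37 and 37.6 for TRIM24-KO and 103 and 97.8 for TRIM33-KO. Whether the tables were counted with strand is not given in the sources used here, although the library kit marks strand, so reads where Mest and Copg2 overlap may be shared.

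Grb10 (chr11:11930508-12038683, - strand) encodes an adaptor protein that restrains insulin and growth factor signalling, and its pattern was not that of Mest. It was at 118 and 305 CPM for WT and 237 and 303 CPM for DUXBL-KO. In the pLV2 set it was at 271 and 251 CPM for WT pLV2 line 1, 19.1 and 119 for line 2, 142 and 159.8 for TRIM24-KO and 21.9 and 26 for TRIM33-KO. TRIM33-KO and library 1 of line 2 were the lowest, line 1 was high, and line 2 held libraries far apart. Grb10 was among the 6 genes called lower in line 2 than in line 1, but not without library 1 of line 2 (edgeR adjusted p = 0.114). In TRIM33-KO it was called lower than the mean of both WT lines, at -2.48, but not against line 2 alone (-1.51, edgeR adjusted p = 0.3424), and in TRIM24-KO it was not called. After DOX it was at 92.6 and 288 CPM for WT, 195 and 247 for DUXBL-KO, 265 and 249.8 for WT pLV2 line 1, 14 and 89.8 for line 2, 107 and 107 for TRIM24-KO and 18.5 and 20.4 for TRIM33-KO, so the gap between the libraries of line 2 was there again.

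**Figure D2:**
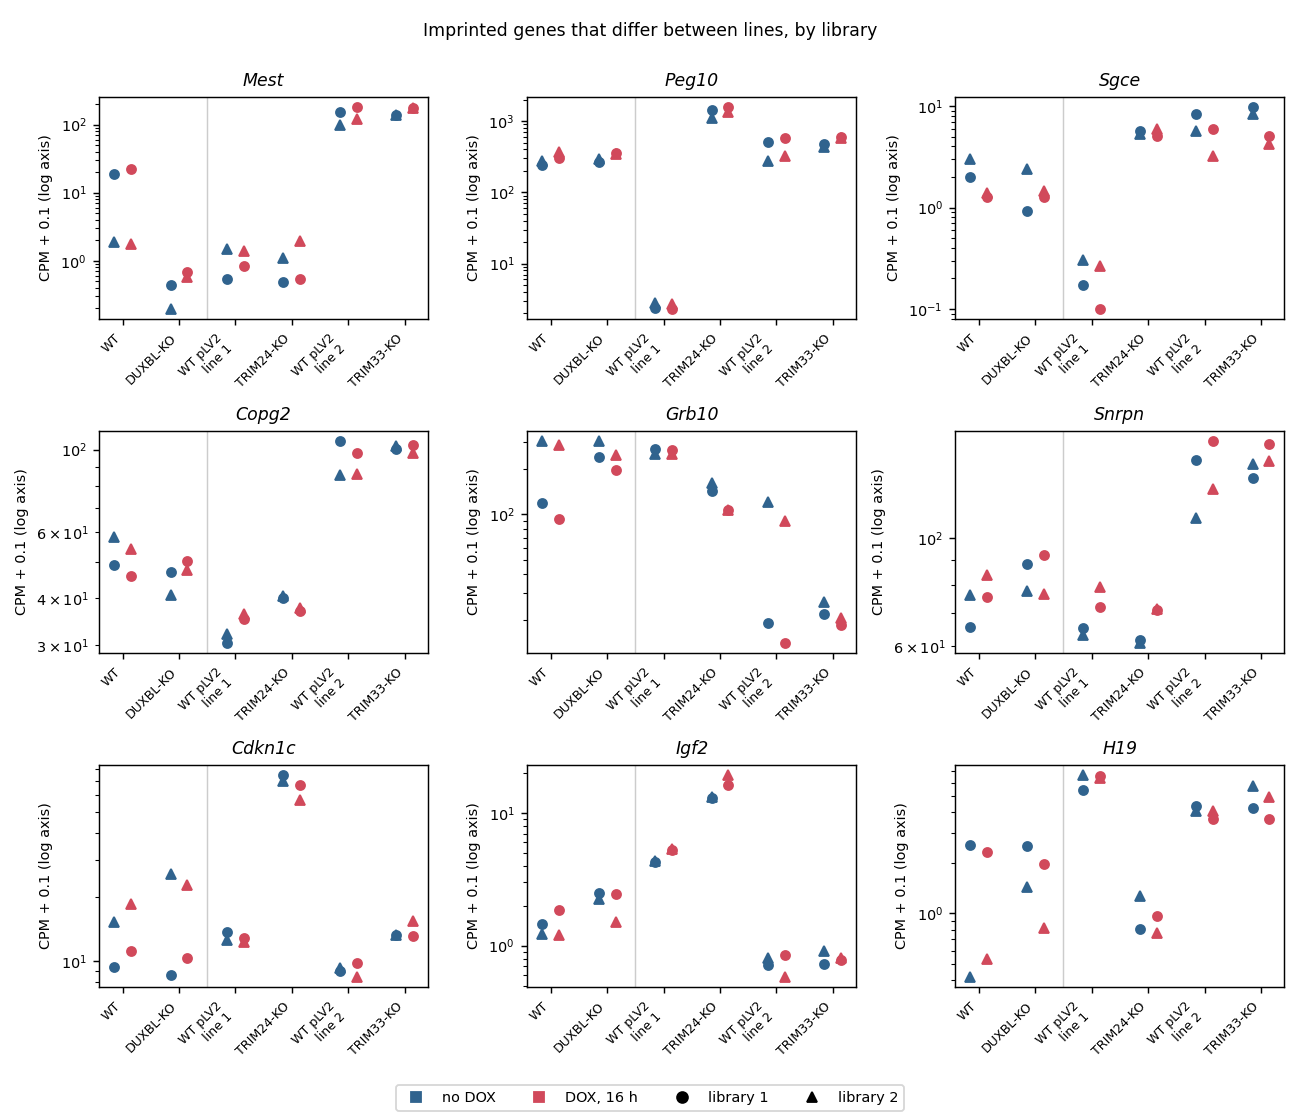
CPM + 0.1 on a log axis for 9 imprinted genes in each line, without DOX (blue) and with 16 h of DOX (red). Circles are library 1 and triangles library 2; the grey line parts the plain set from the pLV2 set. Peg10 and Sgce are lowest in WT pLV2 line 1, Mest is raised in WT pLV2 line 2 and TRIM33-KO, and Cdkn1c and Igf2 are highest in TRIM24-KO.

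At the distal end of chromosome 7, H19 and Igf2 share one imprinting control region and are expressed from opposite parental copies. H19 (chr7:142575529-142578143, - strand) is a long noncoding RNA, and Igf2 (chr7:142650766-142666816, - strand) encodes an insulin-like growth factor. Without DOX, H19 was at 2.46 and 0.32 CPM for WT, 2.42 and 1.33 for DUXBL-KO, 5.31 and 6.58 for WT pLV2 line 1, 4.28 and 3.95 for line 2, 0.705 and 1.17 for TRIM24-KO and 4.13 and 5.62 for TRIM33-KO. Igf2 was at 1.37 and 1.12 CPM for WT, 2.42 and 2.14 for DUXBL-KO, 4.16 and 4.23 for WT pLV2 line 1, 0.611 and 0.713 for line 2, 12.9 and 13.1 for TRIM24-KO and 0.627 and 0.81 for TRIM33-KO. TRIM24-KO had the most Igf2 of the 6 lines, and its H19 lay below every other pLV2 library. Against the mean of both WT pLV2 lines, Igf2 was higher by a log2 fold change of 2.94 (SE 0.15, edgeR adjusted p = 1.962e-10) and H19 lower, with -2.41 (SE 0.25, edgeR adjusted p = 9.127e-07). Both calls held with either WT line as the only reference: 1.61 and -2.68 with line 1, 4.28 and -2.13 with line 2. Between the WT lines Igf2 was lower in line 2, with a log2 fold change of -2.67 (SE 0.24, edgeR adjusted p = 3.496e-07), and H19 was not called. With DOX, H19 was at 2.23 and 0.435 CPM for WT, 1.87 and 0.723 for DUXBL-KO, 6.5 and 6.27 for WT pLV2 line 1, 3.56 and 3.95 for line 2, 0.866 and 0.667 for TRIM24-KO and 3.56 and 4.81 for TRIM33-KO. Igf2 with DOX was at 1.75 and 1.11 CPM for WT, 2.34 and 1.4 for DUXBL-KO, 5.12 and 5.29 for WT pLV2 line 1, 0.744 and 0.483 for line 2, 16.2 and 19.3 for TRIM24-KO and 0.674 and 0.704 for TRIM33-KO, again highest in TRIM24-KO.

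The neighbouring domain of Kcnq1ot1 holds genes of the maternal copy that this antisense RNA silences on the paternal copy. Cdkn1c (chr7:143458339-143461050, - strand), an inhibitor of the cell cycle, was at 9.36 and 15.2 CPM for WT, 8.5 and 25.5 for DUXBL-KO, 13.6 and 12.6 for WT pLV2 line 1, 8.91 and 9.26 for line 2, 74.9 and 69.8 for TRIM24-KO and 13.2 and 13.3 for TRIM33-KO without DOX. TRIM24-KO was far above all other libraries, and library 2 of DUXBL-KO was the next. Set beside the mean of both WT pLV2 lines, its log2 fold change was 2.71 (SE 0.09, edgeR adjusted p = 6.839e-13). Slc22a18, a membrane transporter of the same domain, was at 1.5 and 4.27 CPM for WT, 1.79 and 3.34 for DUXBL-KO, 3.23 and 3.9 for WT pLV2 line 1, 3.21 and 4.47 for line 2, 12.4 and 10.1 for TRIM24-KO and 3.82 and 2.43 for TRIM33-KO. It was higher in TRIM24-KO by 1.59 (SE 0.17, edgeR adjusted p = 1.577e-06). Phlda2, which limits placental growth, was called higher there by 0.56. Kcnq1ot1 itself (chr7:143203458-143296549, - strand) was at 143 and 125 CPM for WT, 150.3 and 218 for DUXBL-KO, 86.1 and 78.4 for WT pLV2 line 1, 90.7 and 91.7 for line 2, 87.7 and 89.9 for TRIM24-KO and 88.6 and 90.4 for TRIM33-KO, and was not called in TRIM24-KO. With DOX, Cdkn1c was at 11.1 and 18.4 CPM for WT, 10.2 and 22.6 for DUXBL-KO, 12.8 and 12.3 for WT pLV2 line 1, 9.76 and 8.38 for line 2, 66.9 and 57.1 for TRIM24-KO and 13.1 and 15.4 for TRIM33-KO, again highest in TRIM24-KO.

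Markers of primitive endoderm moved with the TRIM24-KO libraries: 7 of the 10 tested were called higher than the mean of both WT pLV2 lines and 0 lower. Of all genes, 20.9% were called higher and 22.5% lower in this comparison. The summed level of these markers over 11 genes was 298 to 307 CPM in TRIM24-KO, 177 to 191 CPM in WT pLV2 line 1 and 174 to 225 CPM in line 2. It was 276 to 284 CPM in plain WT, 229 to 267 CPM in DUXBL-KO and 165 to 169 CPM in TRIM33-KO. The median log2 fold change of the 10 was 1.76. Of 7 trophoblast markers tested, 4 were called higher and 1 lower, and their summed level was 51.0 to 55.3 CPM in TRIM24-KO beside 71.6 to 93.1 CPM in the WT pLV2 lines. The part of other cell types in these levels was not tested.

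The region of central chromosome 7 around Snrpn, whose human counterpart is altered in Prader-Willi syndrome, is expressed mostly from the paternal copy. Snrpn (chr7:59982495-60140219, - strand) encodes a splicing protein and shares a transcript with Snurf. Without DOX, Snrpn was at 65.6 and 76.4 CPM for WT, 88.3 and 77.8 for DUXBL-KO, 65.1 and 63 for WT pLV2 line 1, 145 and 110.0 for line 2, 61.5 and 60.7 for TRIM24-KO and 133 and 142 for TRIM33-KO. Line 2 and TRIM33-KO were above all other libraries. Line 2 exceeded line 1 by a log2 fold change of 0.99 for Snrpn and 0.98 for Snurf, and both were called. Ndn, which encodes necdin, was at 4.85 and 4.22 CPM for WT, 4.45 and 4.38 for DUXBL-KO, 3.23 and 3.22 for WT pLV2 line 1, 8.86 and 7.52 for line 2, 3.91 and 4.18 for TRIM24-KO and 9.26 and 8.91 for TRIM33-KO. It was higher in line 2 by 1.33 (SE 0.18, edgeR adjusted p = 2.133e-05). For Peg12, a paternally expressed gene further along the region, the values were 4.58 and 1.82 CPM for WT, 2.51 and 1.05 for DUXBL-KO, 1.65 and 1.75 for WT pLV2 line 1, 4.63 and 4.28 for line 2, 1.54 and 1.97 for TRIM24-KO and 4.13 and 4.15 for TRIM33-KO, and line 2 was higher by 1.38 (SE 0.27, edgeR adjusted p = 0.0006733). Mkrn3, a ring finger gene of this region, went the other way and was called lower in line 2, with a log2 fold change of -0.59. Ube3a, a ubiquitin ligase, was not called between the WT lines. Plain WT held libraries apart here too, since Peg12 was 2.52 times higher in library 1 than in library 2. After DOX, Snrpn was at 75.7 and 83.7 CPM for WT, 92.1 and 76.6 for DUXBL-KO, 72.1 and 79.3 for WT pLV2 line 1, 159 and 126 for line 2, 71.1 and 71.3 for TRIM24-KO and 157 and 144 for TRIM33-KO. Ndn with DOX was at 6.26 and 5.31 CPM for WT, 4.97 and 3.52 for DUXBL-KO, 5.77 and 5.05 for WT pLV2 line 1, 8.52 and 9.59 for line 2, 5.46 and 6.0 for TRIM24-KO and 8.18 and 11 for TRIM33-KO, and Peg12 was at 2.97 and 1.16 CPM for WT, 1.4 and 0.723 for DUXBL-KO, 1.46 and 2.69 for WT pLV2 line 1, 3.06 and 3.79 for line 2, 1.65 and 2.27 for TRIM24-KO and 2.6 and 3.64 for TRIM33-KO.

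At the proximal end of chromosome 7, Peg3, a zinc finger gene, and Usp29, a ubiquitin protease gene, start next to each other on opposite strands. Peg3 (chr7:6703892-6730431, - strand) was at 110.4 and 52.8 CPM for WT, 29.9 and 22.5 for DUXBL-KO, 42 and 43.3 for WT pLV2 line 1, 27.4 and 42.9 for line 2, 34.4 and 43.1 for TRIM24-KO and 26 and 25.1 for TRIM33-KO without DOX. Plain WT was the highest, above every library of the other lines, and its libraries differed 2.09-fold. TRIM33-KO was called lower than the mean of both WT pLV2 lines with a log2 fold change of -0.60, but not against line 2 alone (-0.45, edgeR adjusted p = 0.1979). Usp29 was at 2.6 and 1.28 CPM for WT, 2.71 and 0.524 for DUXBL-KO, 1.79 and 1.75 for WT pLV2 line 1, 3.36 and 3.43 for line 2, 0.449 and 0.923 for TRIM24-KO and 2.61 and 3.19 for TRIM33-KO. It was lower in TRIM24-KO at -1.84 (SE 0.30, edgeR adjusted p = 9.743e-05), and the call held against each WT line alone. Zim1, a maternally expressed zinc finger gene beside Peg3, was called in no comparison. With DOX, Peg3 was at 126 and 61.5 CPM for WT, 46.1 and 32.8 for DUXBL-KO, 54.2 and 53.8 for WT pLV2 line 1, 40 and 41.8 for line 2, 44.9 and 50.7 for TRIM24-KO and 40.4 and 41.3 for TRIM33-KO, and Usp29 at 3.93 and 1.4 CPM for WT, 2.87 and 0.386 for DUXBL-KO, 2.93 and 2.2 for WT pLV2 line 1, 4.22 and 3.38 for line 2, 0.953 and 0.801 for TRIM24-KO and 3.76 and 4.69 for TRIM33-KO.

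On chromosome 2, Nnat, a small membrane protein of neurons that lies within an intron of Blcap, was at 6.42 and 3.31 CPM for WT, 3.38 and 2.24 for DUXBL-KO, 3.44 and 3.76 for WT pLV2 line 1, 8.5 and 7.19 for line 2, 8.27 and 7.32 for TRIM24-KO and 8.05 and 12 for TRIM33-KO. Line 2 was higher than line 1 by 1.11 (SE 0.21, edgeR adjusted p = 0.0005564), and TRIM33-KO had the highest single library. Gnas (chr2:174284320-174346744, + strand), which encodes the stimulatory G protein subunit and several other products, was at 95.7 and 102 CPM for WT, 92.7 and 103 for DUXBL-KO, 89.3 and 94.3 for WT pLV2 line 1, 71 and 86.8 for line 2, 134 and 142 for TRIM24-KO and 78 and 85.8 for TRIM33-KO. It was called higher in TRIM24-KO by 0.68. Line 2 and line 1 were not called apart in Gnas. Nnat with DOX was at 7.59 and 5.17 CPM for WT, 4.04 and 2.84 for DUXBL-KO, 3.33 and 4.48 for WT pLV2 line 1, 8.27 and 7.01 for line 2, 9.35 and 7.74 for TRIM24-KO and 8.95 and 9.62 for TRIM33-KO, and Gnas was at 95.2 and 99.2 CPM for WT, 89.6 and 101 for DUXBL-KO, 87.3 and 99.4 for WT pLV2 line 1, 74.3 and 83.6 for line 2, 129 and 147 for TRIM24-KO and 85.8 and 84.1 for TRIM33-KO. The Blcap and Mcts2 genes of the same chromosome were each called slightly higher in TRIM24-KO, by 0.28 and 0.36, but not against line 1 alone (0.19 and 0.31, edgeR adjusted p = 0.1292 and 0.1318).

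Impact (chr18:12955852-12992950, + strand), a regulator of translation under stress, was at 76.5 and 62.8 CPM for WT, 80.2 and 59.5 for DUXBL-KO, 65.1 and 67.4 for WT pLV2 line 1, 83.3 and 82 for line 2, 53.9 and 49.5 for TRIM24-KO and 70 and 71 for TRIM33-KO. TRIM24-KO was the lowest line, with a call of -0.54 on the log2 scale, and line 2 was called higher than line 1 by 0.31. Igf2r (chr17:12682406-12769664, - strand), the receptor that clears IGF2, was at 109 and 144 CPM for WT, 118 and 134 for DUXBL-KO, 157 and 159 for WT pLV2 line 1, 146 and 146 for line 2, 162 and 186 for TRIM24-KO and 147 and 129.6 for TRIM33-KO, a narrow range. Without DOX it was called in TRIM24-KO only, by 0.17, but not against line 1 alone (0.11, edgeR adjusted p = 0.3051), and its antisense RNA Airn had at most 20 counts in any library. Zfp57 (chr17:37001163-37010635, + strand) was at 318 and 306 CPM for WT, 353 and 359.9 for DUXBL-KO, 275 and 269 for WT pLV2 line 1, 215 and 196 for line 2, 383 and 362 for TRIM24-KO and 183 and 210.5 for TRIM33-KO. TRIM24-KO was higher by 0.64 (called), line 2 was lower than line 1 at -0.41 (called), and TRIM33-KO was the lowest line. With DOX, Impact was at 97.5 and 75.5 CPM for WT, 92.2 and 71.3 for DUXBL-KO, 67.6 and 72.8 for WT pLV2 line 1, 88.7 and 89.1 for line 2, 56.1 and 55.6 for TRIM24-KO and 77 and 78.1 for TRIM33-KO, Igf2r at 129.9 and 142 CPM for WT, 134 and 143 for DUXBL-KO, 188 and 176 for WT pLV2 line 1, 144 and 144 for line 2, 181 and 192 for TRIM24-KO and 142 and 158 for TRIM33-KO, and Zfp57 at 285 and 285 CPM for WT, 332 and 342 for DUXBL-KO, 265 and 251 for WT pLV2 line 1, 176 and 175 for line 2, 328 and 317 for TRIM24-KO and 146 and 168 for TRIM33-KO.

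Among the rest, Zdbf2, a zinc finger gene of chromosome 1, was called higher in line 2 than in line 1 by 0.97 and Commd1 by 0.83. Slc38a4, an amino acid transporter, was called lower in TRIM24-KO at -0.77, Commd1 at -0.68 and Plagl1, a zinc finger growth regulator, at -0.58. Trappc9 and Peg13, which overlap on chromosome 15, moved by 0.27 and 0.94 there and were both called higher. Against line 1 alone Commd1 (-0.27, edgeR adjusted p = 0.133) and Trappc9 (0.11, edgeR adjusted p = 0.4323) were not called, and against line 2 alone Peg13 was not (0.53, edgeR adjusted p = 0.3088). Zrsr1 lies in an intron of Commd1 on the opposite strand and was called higher in line 2 by 0.47. Airn, Kcnq1ot1, Magel2 and Zim1 were called in none of the 4 comparisons without DOX.

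The result for TRIM33-KO depended on the WT line beside which it was set. Against the mean of both WT lines on the log scale, Peg10 was higher by 3.87 (SE 0.23, edgeR adjusted p = 1.075e-08), Mest by 3.66 (SE 0.23, edgeR adjusted p = 3.205e-08) and Sgce by 3.14 (SE 0.31, edgeR adjusted p = 2.892e-06). Against line 1 alone, 23 of 36 listed genes were called (40.9% of all genes), and against line 2 alone, 1 (1.52% of all genes). That gene was Cdkn1c, higher by 0.55 (SE 0.12, edgeR adjusted p = 0.02464). The log2 fold changes against line 2 ran from -1.51 for Grb10 to 0.55, and 34 of 36 lay within 0.5 of 0; against line 1, 18 of 36 did. Mest differed from line 2 by 0.13 (SE 0.19), Peg10 by 0.24 (SE 0.23) and Sgce by 0.37 (SE 0.24), and none of these was called. TRIM24-KO differed from both: 19 of 36 were called against line 1 (34% of all genes) and 26 against line 2 (48.1% of all genes). Of the 26 called against the mean, Blcap, Commd1, Igf2r, Mcts2, Mest, Peg12, Snrpn, Snurf, Trappc9 and Ube3a were not called against line 1 alone, and Nnat, Peg13 and Sgce were not called against line 2 alone. Copg2 changed direction: it was called lower against the mean and against line 2 (-1.26, SE 0.09, edgeR adjusted p = 7.845e-09), but higher against line 1 (0.34, SE 0.10, edgeR adjusted p = 0.01057).

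**Figure D3:**
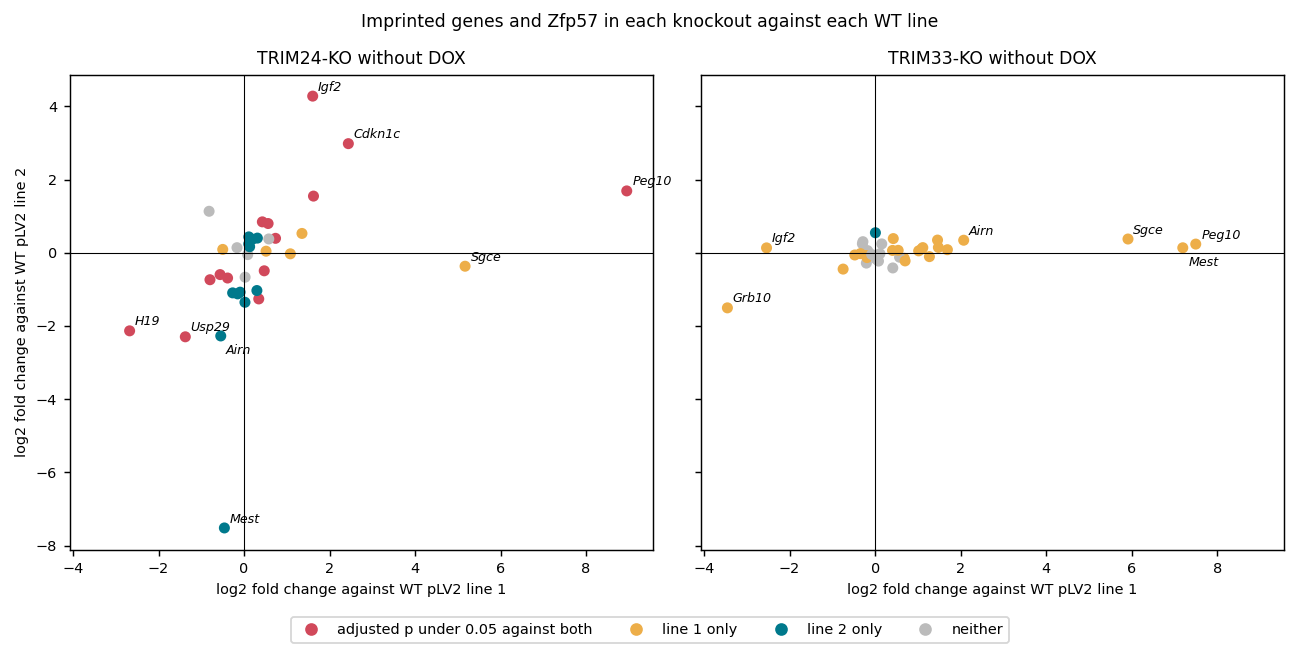
Log2 fold change of each of the 36 listed genes in TRIM24-KO (left) and TRIM33-KO (right), without DOX, against WT pLV2 line 1 (x axis) and WT pLV2 line 2 (y axis); colour gives the calls of edgeR. TRIM33-KO lies near 0 on the y axis for 34 of 36 genes, and Igf2, Cdkn1c and Peg10 are called higher in TRIM24-KO against both lines.

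In DUXBL-KO the 4 of 36 listed genes with an unadjusted p under 0.05, beside the 8.99% of all genes, were Peg13, Mest, Peg3 and Trappc9, which are named here after their values were seen. Peg13, a noncoding RNA within Trappc9, was at 0.752 and 0.427 CPM for WT and 3.53 and 4.62 CPM for DUXBL-KO, a log2 fold change of 2.78 (SE 0.42, edgeR adjusted p = 0.1069). Peg3 had a log2 fold change of -1.66 (SE 0.44, edgeR adjusted p = 0.3315) and Mest one of -5.54 (SE 1.73, edgeR adjusted p = 0.4385), from at most 7 counts per DUXBL-KO library. The WT libraries had 18.9 and 1.76 CPM of Mest, so its WT mean rests mostly on library 1. The coefficient of variation of the plain set was 17.8%, beside 8.55% in the pLV2 set. With edgeR's quasi-likelihood test as fitted here, none of the 4 passed the threshold after adjustment, which at this spread does not show that they were equal. Other fits called some or all of them. DESeq2 called Peg13, Peg3 and Mest (DESeq2 adjusted p = 0.0002669, 0.004653 and 0.04025), and so did edgeR without a filter on low counts, together with Kcnq1ot1 (0.45). With the library number as a block, edgeR called all 4 (edgeR adjusted p from 0.007622 for Peg3 to 0.03473 for Trappc9). The directions were the same in each of these fits, and more of all genes were called in them: 0.98% by DESeq2, 1.7% without the filter and 2.44% with the block, beside 0.0388%.

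DOX raised 1 listed gene in every line: Magel2 (chr7:62377010-62381640, + strand), a gene of the Snrpn region without introns, whose product recruits ubiquitin ligases to endosomes. Without DOX, Magel2 was at 0.82 and 1.2 CPM for WT, 1.74 and 1.19 for DUXBL-KO, 1.65 and 0.739 for WT pLV2 line 1, 2.09 and 1.75 for line 2, 1.28 and 1.17 for TRIM24-KO and 1.62 and 1.92 for TRIM33-KO. With DOX it was at 8.12 and 5.56 CPM for WT, 9.83 and 4.63 for DUXBL-KO, 14.3 and 16.9 for WT pLV2 line 1, 19.4 and 18.3 for line 2, 10.6 and 11.2 for TRIM24-KO and 26.8 and 27.4 for TRIM33-KO. Each of the 12 DOX libraries was above each of the 12 libraries without DOX. The log2 fold changes were 3.68 in line 1 (SE 0.22, edgeR adjusted p = 1.366e-09), 3.24 in line 2 (SE 0.19, edgeR adjusted p = 6.946e-10), 3.16 in TRIM24-KO (SE 0.23, edgeR adjusted p = 1.221e-08) and 3.89 in TRIM33-KO (SE 0.19, edgeR adjusted p = 3.443e-11). In the plain set they were 2.75 in WT (SE 0.46, edgeR adjusted p = 0.02447) and 2.30 in DUXBL-KO (SE 0.43, edgeR adjusted p = 0.02546). The calls of the plain set did not hold with only the compared groups in the fit (edgeR adjusted p = 0.05359 in WT and 0.097 in DUXBL-KO). In WT the call was lost without library 1 (0.1968) or library 2 (0.1516) of the cells without DOX, or without DOX library 1 (0.09674). In DUXBL-KO it was lost likewise without library 1 (0.09374), library 2 (0.1742) or DOX library 1 (0.1057). Gm32061, which overlaps Magel2 on the opposite strand, had at most 1 count in any library. The other genes of the region did not move with Magel2 in size: the log2 fold changes of Ndn ran from -0.05 to 0.71 and those of Snrpn from 0.03 to 0.24 over the 6 lines.

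Beyond Magel2, the called responses of the listed genes to DOX were mostly under 2-fold, and the shares called were near those of all genes. In plain WT 1 of 36 was called, Magel2, beside 2.93% of all genes, of which 2.82% higher. In DUXBL-KO it was Magel2 again, beside 4.91% of all genes, of which 4.5% higher. In WT pLV2 line 1, 6 were called (16.3% of all genes), 4 higher (10%) and 2 lower (6.25%). The count was 8 in line 2 (26.8% of all genes), 3 higher (12.7%) and 5 lower (14%), and 8 in TRIM24-KO (16.4% of all genes), 5 higher (11.5%) and 3 lower (4.94%). TRIM33-KO had 13 (36.6% of all genes), 5 higher (16.5%) and 8 lower (20.1%). The median log2 fold change of the 36 genes was -0.03, -0.03, 0.07, -0.05, 0.13 and 0.04 in these 6 lines, and that of all genes -0.01, -0.01, -0.03, -0.07, 0 and -0.09. Over the 6 lines 16 genes were called at least once and 20 never, with 37 calls in all, of which 29 were under 2-fold. No gene was called in both directions. Leaving out single libraries moved some counts by over 1.5 times. Line 1 fell to 3 without its library 2, and TRIM24-KO to 3 or 4 without its library 1 or 2 and to 5 or 2 without its DOX library 1 or 2. TRIM33-KO fell to 8 without either library without DOX and to 7 without either DOX library. The share of all genes called fell too, to 8.58% in line 1, to between 10.2% and 14% in TRIM24-KO and to between 23.3% and 27.3% in TRIM33-KO. In DOX library 2 of TRIM24-KO, 30.4% of gene counts fell on CT010467.1, and without that gene 4 listed genes were called there (17.1% of all genes). The share was 12.9% in DOX library 2 of TRIM33-KO and at most 1.3% in the other 22 libraries. In TRIM33-KO 12 listed genes were called without that gene and 13 with it. With only the compared groups in the fit, 11 were called in line 1 (26.5% of all genes), 3 in line 2 (16.5%), 4 in TRIM24-KO (12.4%) and 0 in each plain line (0.00591% in WT and 4.27% in DUXBL-KO). DESeq2 called 3 in TRIM24-KO (13.8% of all genes) and 8 in TRIM33-KO (27.8%). With the library number as a block within each line, an alternative chosen after seeing the data, the count rose to 5 in WT, 8 in DUXBL-KO, 13 in line 2 and 14 in TRIM24-KO. All genes called rose as well, from 529 to 2605, from 886 to 3759, from 4838 to 6326 and from 2969 to 4208.

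**Figure D4:**
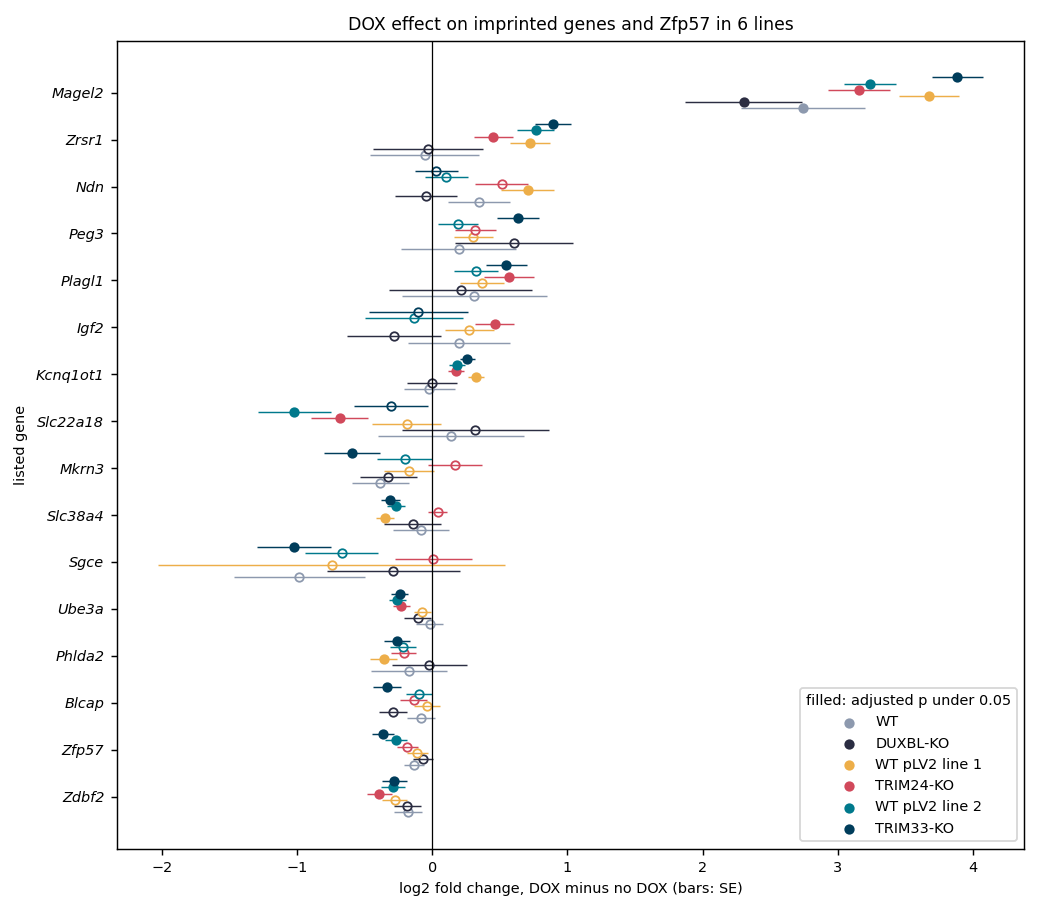
Log2 fold change of DOX against no DOX, with its SE, for the 16 listed genes called in at least 1 line, 1 colour per line. Filled points have an edgeR adjusted p under 0.05. Magel2 is called in all 6 lines at 2.30 to 3.89, and the other genes lie between -1.02 and 0.89.

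Zrsr1 and Kcnq1ot1 were called higher with DOX in all 4 pLV2 lines. Zrsr1 (chr11:22972005-22976496, + strand), a splicing factor gene copied by retrotransposition, was at 26.6 and 13.7 CPM for WT, 16 and 13.3 for DUXBL-KO, 11.1 and 10.7 for WT pLV2 line 1, 15.6 and 15 for line 2, 17.9 and 13.9 for TRIM24-KO and 14.4 and 17.6 for TRIM33-KO without DOX. With DOX it was at 26.1 and 12.7 CPM for WT, 16.3 and 12.2 for DUXBL-KO, 19.4 and 17.6 for WT pLV2 line 1, 29.4 and 24 for line 2, 21.8 and 20.9 for TRIM24-KO and 32.4 and 28.6 for TRIM33-KO. In the pLV2 set the DOX libraries of each line were above those without DOX, while in the plain set the values hardly differed. Its log2 fold change was 0.89 in TRIM33-KO (SE 0.14, edgeR adjusted p = 6.782e-05), 0.76 in line 2 (SE 0.14, edgeR adjusted p = 0.0004464), 0.72 in line 1 and 0.45 in TRIM24-KO. The TRIM24-KO call held in 7 of 13 settings, and the other 3 held in every setting run. Kcnq1ot1 with DOX was at 118 and 147 CPM for WT, 180.3 and 184 for DUXBL-KO, 106 and 105 for WT pLV2 line 1, 105 and 108 for line 2, 98.1 and 99.9 for TRIM24-KO and 109 and 112 for TRIM33-KO. It rose by 0.33 in line 1 (SE 0.06, edgeR adjusted p = 0.000725), 0.26 in TRIM33-KO, and 0.18 in both line 2 and TRIM24-KO. The TRIM24-KO call held in 3 of 13 settings and the line 2 call in 9 of 14. The differences in DOX effect between the plain and pLV2 sets were not tested.

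Other rises were called in only 1 or 2 lines: Ndn in line 1 (0.71), Peg3 in TRIM33-KO (0.64), Igf2 in TRIM24-KO (0.46), and Plagl1 in TRIM24-KO (0.57) and TRIM33-KO (0.55). The log2 fold change was above 0 in all 6 lines for Peg3 (0.19 to 0.64) and Plagl1 (0.21 to 0.57), in 5 for Ndn and in 3 for Igf2. Among the genes that fell, Slc38a4 was called in 3 lines, with -0.35 in line 1 (SE 0.07, edgeR adjusted p = 0.001322), -0.27 in line 2 and -0.31 in TRIM33-KO. Without DOX it was at 167 and 145 CPM for WT, 170.0 and 125 for DUXBL-KO, 189 and 194 for WT pLV2 line 1, 184 and 187 for line 2, 116 and 109 for TRIM24-KO and 177 and 162 for TRIM33-KO. With DOX it was at 163 and 133 CPM for WT, 155 and 109 for DUXBL-KO, 157 and 151 for WT pLV2 line 1, 152 and 163 for line 2, 119 and 108 for TRIM24-KO and 142 and 139 for TRIM33-KO, lower in both libraries of those lines. The line 1 call was lost without its library 2 (0.05121). Zdbf2 was called lower in line 2, TRIM24-KO and TRIM33-KO, at -0.29, -0.39 (SE 0.09, edgeR adjusted p = 0.006567) and -0.28. Its values were 228 and 209.9 CPM for WT, 193 and 214 for DUXBL-KO, 130.4 and 136 for WT pLV2 line 1, 289 and 236 for line 2, 196 and 179.5 for TRIM24-KO and 262 and 281 for TRIM33-KO without DOX. They were 189.8 and 198 CPM for WT, 166 and 189 for DUXBL-KO, 113 and 112 for WT pLV2 line 1, 236 and 204 for line 2, 139 and 143 for TRIM24-KO and 221 and 239 for TRIM33-KO with DOX. The TRIM24-KO call was lost without its library 1 (0.0739).

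Ube3a was called lower in the same 3 lines at -0.26, -0.23 (SE 0.06, edgeR adjusted p = 0.01868) and -0.24. Without DOX it was at 166 and 167 CPM for WT, 174 and 186 for DUXBL-KO, 146 and 149.8 for WT pLV2 line 1, 146 and 146 for line 2, 169.7 and 160.0 for TRIM24-KO and 142 and 139.7 for TRIM33-KO. With DOX it was at 152 and 178 CPM for WT, 161 and 170.4 for DUXBL-KO, 152 and 137 for WT pLV2 line 1, 126 and 124 for line 2, 139 and 139 for TRIM24-KO and 119 and 126 for TRIM33-KO. The call in TRIM24-KO was lost without its library 1 (0.1459) and without its DOX library 2 (0.09875). Slc22a18 was called lower in line 2 at -1.02 (SE 0.27, edgeR adjusted p = 0.01009) and in TRIM24-KO at -0.68. With DOX it was at 2.49 and 3.96 CPM for WT, 2.46 and 3.86 for DUXBL-KO, 3.41 and 3.01 for WT pLV2 line 1, 2.07 and 1.77 for line 2, 6.93 and 6.81 for TRIM24-KO and 2.41 and 2.82 for TRIM33-KO. The line 2 call was lost without library 2 of line 2 (0.1066), without its DOX library 2 (0.0734) and without both (0.2847). Sgce was lower in TRIM33-KO at -1.02 (SE 0.27, edgeR adjusted p = 0.007494), but not without its library 1 (0.05449) or its DOX library 2 (0.08355). Zfp57 was called lower in line 2 at -0.27 and in TRIM33-KO at -0.36, Phlda2 in line 1 at -0.36 and in TRIM33-KO at -0.26, and Mkrn3 (-0.59) and Blcap (-0.34) in TRIM33-KO.

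The DOX effect itself was compared between lines with interaction terms, and edgeR's quasi-likelihood test called 0 of 36 listed genes in each of 4 comparisons. With an unadjusted p under 0.05 there were 0 for DUXBL-KO against WT, 2 for line 2 against line 1, 1 for TRIM24-KO and 1 for TRIM33-KO against the mean of both WT lines, beside 0.543%, 7.76%, 8.56% and 9.85% of all genes. DESeq2 also called 0 in each. Of all genes, 0%, 0.238%, 0.437% and 0.575% were called. For Magel2 the difference in DOX effect was -0.44 (SE 0.62) in DUXBL-KO against WT, -0.44 (SE 0.33) in line 2 against line 1, -0.30 (SE 0.31) in TRIM24-KO and 0.43 (SE 0.27) in TRIM33-KO. None of these passed the threshold (edgeR adjusted p = 1, 0.8067, 0.8665 and 0.6357), which does not show that the effects were equal. With the library number as a block within each line, 1 listed gene was called for line 2 against line 1, Grb10 at -0.40 (SE 0.08, edgeR adjusted p = 0.005721), and 1 for TRIM24-KO, Slc38a4 at 0.35 (SE 0.07, edgeR adjusted p = 0.004041), beside 1.75% and 2.41% of all genes.

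All 8 markers of the 2-cell state were called higher with DOX in every line. Dux, whose transgene DOX switches on, was 1 of the 8, so its rise was set by the design. It was at most 8.95 CPM in any library. The 8 markers summed to at most 4.66 CPM in any library without DOX, and with DOX to 484 to 1165 CPM in WT, 927 to 1411 in DUXBL-KO, 1006 to 1256 in line 1, 3086 to 4090 in line 2, 1121 to 1676 in TRIM24-KO and 5233 to 5803 in TRIM33-KO. Line 2 and TRIM33-KO were thus above all other libraries. The DOX effect was larger in line 2 than in line 1 for Zscan4c and Zscan4d (by 4.31 each, called), and without DOX both and Usp17la were called lower in line 2. Markers of other states moved with DOX as well. Of the 10 ES cell markers, 2 were called lower with DOX in line 1, 6 in line 2, 5 in TRIM24-KO and 6 in TRIM33-KO, Sox2 and Utf1 in all 4 lines, while Nanog was called higher in all but TRIM24-KO. Of all genes, 6.25%, 14%, 4.94% and 20.1% were called lower in these lines, and 10%, 12.7%, 11.5% and 16.5% higher. Of 7 trophoblast markers tested, 1 was called lower in line 1 and 3 each in line 2 and TRIM33-KO, with Eomes among them each time. The fibroblast list summed to 54.5 to 59.2 CPM with DOX in line 1, 73.0 to 78.0 CPM in line 2, 55.2 to 58.9 CPM in TRIM24-KO and 62.2 to 66.1 CPM in TRIM33-KO, above the same line without DOX in each case. Of the 9 tested, 2 each were called higher in line 1, line 2 and TRIM24-KO and 3 in TRIM33-KO, and Pdgfrb was called lower in line 2 and TRIM33-KO. Primitive endoderm and neural markers gave single calls: Gata4 and Amn lower in line 2, Sox7 and Tubb3 lower in TRIM33-KO, and Nes higher and Sox1 lower in TRIM24-KO. In the plain set Neurod1, a neural marker, was called lower in DUXBL-KO at -1.58. No ES cell, trophoblast or fibroblast marker was called there by edgeR's quasi-likelihood test, and 1 ES cell and 1 trophoblast marker in WT and 1 ES cell and 1 fibroblast marker in DUXBL-KO had an unadjusted p under 0.05. Of all genes, 10.8% in WT and 14% in DUXBL-KO had such a p. The part of these markers in the DOX responses was not tested.

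Of 27 genes whose products set, keep or remove DNA methylation or chromatin marks linked to imprinting, Zfp57 included, 16 were called between line 2 and line 1, 5 higher and 11 lower, beside 38.3% of all genes. The largest called changes were Dnmt3l, a cofactor of DNA methylation in germ cells, at -1.27, and Dppa3, which protects the maternal genome from demethylation, at 1.25. In TRIM24-KO 21 of 27 were called (43.4% of all genes), 12 higher and 9 lower, led by Tet3, which oxidises methylated cytosine (1.51), Ehmt2 (1.33) and Dnmt3a (-1.24). TRIM33-KO had 9 of 27 (23.9% of all genes), 4 higher and 5 lower, led by Dppa3 (0.80) and Dnmt3l (-0.64). DUXBL-KO against WT had 0 (0.0388% of all genes), and 4 had an unadjusted p under 0.05 (8.99% of all genes). After DOX, Dppa3 was the largest called change in all 4 pLV2 lines, higher by 0.81, 0.84, 1.10 and 1.21 in line 1, line 2, TRIM24-KO and TRIM33-KO, and 11, 15, 6 and 18 of 27 were called, beside 16.3%, 26.8%, 16.4% and 36.6% of all genes. In the plain set 0 of 27 were called in either line with DOX, with 2 in WT and 4 in DUXBL-KO at an unadjusted p under 0.05. Of all genes, 2.93% in WT and 4.91% in DUXBL-KO were called, and 10.8% and 14% had an unadjusted p under 0.05.

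A second list of 38 imprinted genes, not among those above, had 27 that passed the filter in the pLV2 set. Line 2 and line 1 differed in 14, 9 higher and 5 lower, beside the 38.3% of all genes. The calcitonin receptor gene Calcr, a neighbour of Peg10 and Sgce on chromosome 6, was higher by 3.45, and Pon3, from the same cluster, by 1.61. In TRIM24-KO 12 were called (43.4% of all genes), 9 higher and 3 lower, led by Zfp264 (-4.36), a zinc finger gene near Peg3, and Pon2 (1.86). TRIM33-KO had 10 (23.9% of all genes), led by Calcr (3.0) and Qpct (1.88). With DOX 0, 4, 3 and 8 of 27 were called in line 1, line 2, TRIM24-KO and TRIM33-KO, beside the 16.3%, 26.8%, 16.4% and 36.6% above, and 0 of 25 in either plain line, with 3 in line 1 and 2 in each plain line at an unadjusted p under 0.05. Of all genes, 2.93% in WT and 4.91% in DUXBL-KO were called. An unadjusted p under 0.05 was found for 28.2% of all genes in line 1, 10.8% in WT and 14% in DUXBL-KO. Ascl2, a placental transcription factor near Igf2, was the largest called change in line 2 (-1.27) and TRIM33-KO (-2.41).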

How the data were processed

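RNA of 24 libraries was sequenced in 75 bp paired reads after removal of ribosomal RNA with a strand-specific kit, per the labels' protocols. The authors deposited raw counts per Ensembl gene, made with bcl2fastq 2.20.0, cutadapt 1.18, STAR 2.7.6a and the mm10 genome, per the submitters' processing notes. The counting tool, its strand setting and its treatment of reads with several matches are not given in the sources used here, so overlapping genes are uncertain. Rows of 1146 repeat subfamilies were left out. Of 55487 gene IDs, 260 had no match in GENCODE M21. The plain and pLV2 sets were fitted separately with edgeR 4.0.16 (R 4.3.3, limma 3.58.1), using TMM scaling, edgeR's filter on low counts, 1 coefficient per group and quasi-likelihood tests, with Benjamini-Hochberg adjustment over all genes tested. SEs are the absolute log2 fold change divided by the square root of the F statistic. CPM used TMM factors over all 24 libraries, so a ratio of CPM values can differ slightly from a fitted fold change. DESeq2 1.42.0, RLE scaling, other filters, a replicate block, the compared groups alone, and each library left out in turn were the alternatives. Genes were named by a rule: per comparison, those called with an absolute log2 fold change of at least 1 and no overlap between groups (at most 8, or filled up to 3 with other called genes), with library values for these and a fixed set of 14, and of the other lists the 3 largest called changes. The genes and lists were chosen with earlier results of these data known. Promoter stretches came from RefSeq tables (GRCm38.p6). The fit was tested on simulated data.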

Additional observations from a re-analysis of the deposited data

How the results depend on the processing

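All 31 fold changes named by the rule kept their direction under every alternative. All 31 kept their calls with DESeq2, RLE scaling, other filters and the replicate block. Copg2 in TRIM24-KO, which is not among the 31, changed direction with the WT line set beside it. With only the compared groups in the fit, 4 of the 31 were no longer called, among them Magel2 with DOX in WT and in DUXBL-KO. Against WT pLV2 line 2 alone, 3 of 9 knockout fold changes without DOX were not called. Leaving out single libraries ended some calls too, as given above. Counts of called genes, Zfp57 included, moved more. Without a filter on low counts, they were 4 for DUXBL-KO against WT without DOX, 2 for DOX in WT and 2 for DOX in DUXBL-KO. For these DOX counts the share of all genes called in the same fit is not given here. Whether they exceed it is therefore not shown. DESeq2 gave 3 for DUXBL-KO against WT, 3 for DOX in TRIM24-KO and 8 for DOX in TRIM33-KO. With only the compared groups, DOX gave 0 in WT and 0 in DUXBL-KO, 11 in line 1, 3 in line 2 and 4 in TRIM24-KO. TRIM33-KO without DOX gave 23 against line 1 alone and 1 against line 2 alone. Without CT010467.1, an alternative chosen after seeing the data, DOX gave 4 in TRIM24-KO. Leaving out single libraries gave 0 to 1 for DOX in WT and in DUXBL-KO, 3 to 5 in line 1, 2 to 5 in TRIM24-KO and 7 to 8 in TRIM33-KO. Apart from fewer samples or genes in a fit, the causes were not tested.

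No label says that the library number marks a shared culture or day, and each comparison has only 2 pairs, so the number was not used as a pairing in the reported fits. Gaps by number did recur with DOX in some lines, and the deviations of same-numbered libraries correlated at 0.452 in WT, 0.644 in DUXBL-KO, 0.0201 in line 1, 0.243 in line 2, 0.156 in TRIM24-KO and 0.0816 in TRIM33-KO. With the number as a replicate block, 4 genes were called for DUXBL-KO against WT, 3 for DOX in WT and 2 for DOX in DUXBL-KO. The shares of all genes called in the block fits for DOX are not given here, so these DOX counts cannot be judged beside them. A replicate block within each line, chosen after seeing the data, gave 5 for DOX in WT, 8 in DUXBL-KO, 13 in line 2 and 14 in TRIM24-KO. It gave 1 for the DOX effect of line 2 against line 1 and 1 for that of TRIM24-KO.

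Each group has only 2 libraries. In simulated data for DOX in plain WT, 56 of 100 genes changed by 1 on the log2 scale were recovered and 100 of 100 changed by 2, among 17618 genes tested, with 9 other genes called. For DOX in TRIM33-KO, 99 of 100 and 100 of 100 were recovered among 17182 genes, with 6 others called.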
